A study of Mus musculus with 12 samples.

Results

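The 10 genes described here encode proteoglycans of the cell surface and of the matrix around it, with 1 enzyme that makes the polysaccharide hyaluronan. They are the syndecans Sdc1, Sdc2, Sdc3 and Sdc4, the glypicans Gpc1, Gpc3, Gpc4 and Gpc6, versican (Vcan) and hyaluronan synthase 2 (Has2). They were chosen by symbol, with earlier results of these data known. Every probe set that the array's gene tables pair with 1 of these symbols alone was taken, whatever its values. That gave 22 probe sets of 22690 on the Affymetrix chip MOE430A and 10 of 22575 on MOE430B, for 10 of 18194 named genes, and all 32 probe sets were bright enough to be tested.

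RNA came from mouse mammospheres, floating clusters of cells grown from the mammary gland, in 2 states of 3 samples each, numbered 1, 2 and 4 in both. The undifferentiated mammospheres were at passage 3 in a 3:1 mix of DMEM and F12 that held B-27, epidermal growth factor, basic fibroblast growth factor and heparin. The submitters put their purity at 90%, with 10% myoepithelial cells, and regarded the spheres as stem and progenitor cells. The differentiated samples came from mammosphere cells led to differentiate over 6 days. Those cells sat on dishes coated with collagen, in DMEM of high glucose content to which 5% fetal bovine serum was added, and were put at 50% myoepithelial and 50% luminal by the submitters. No strain, age or genotype was given in the sources used here, and whether the 3 samples of a state stem from distinct cultures or mice is not said. The p-values therefore reflect how far these RNA preparations varied, and that variation may be technical. Medium, heparin, growth factors, serum, attachment and the fluidics station of the arrays all differed with the state, so their parts cannot be told apart.

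Syndecans cross the cell membrane and glypicans are held on its outer face by a lipid anchor. Both carry heparan sulfate, a sulfated sugar chain that binds fibroblast growth factors, Wnt proteins and matrix proteins, and heparin is a soluble, more highly sulfated relative of that chain. Versican is a large secreted proteoglycan that carries chondroitin sulfate and binds hyaluronan, a chain without sulfate that Has2 makes at the cell membrane. In the mouse mammary gland Sdc1 is known as the syndecan of the epithelium, and mice without it resist mammary tumours driven by Wnt1.

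Values are MAS5 signals, a linear brightness per probe set that is scaled so that each array has the same trimmed mean, about 1500 units. The background of an array is its highest signal among the trpn control probe sets, for which mouse RNA holds no match, and lay between 515.5 and 829.8 on MOE430A and between 1674 and 2995 on MOE430B. Changes are log2 differences, differentiated minus undifferentiated, with limma's standard error (SE), and a probe set passed at a Benjamini-Hochberg adjusted p below 0.05 over all tested probe sets of its chip. A gene is represented by its brightest tested probe set on MOE430A. Failing any there, the brightest on MOE430B was used, which applied to 5493 of the genes tested but to none of the 10. Because the arrays carry bulk RNA, fewer cells of a type and less RNA per cell cannot be told apart. The myoepithelial markers were split on the labelled share of those cells. Krt14, Krt5 and Trp63, which mark the basal epithelium, were below background in all 6 samples by their representative probe sets, and so was Oxtr. Acta2, Mylk and Cnn1, contractile genes that smooth muscle cells and myofibroblasts also express, passed as higher in the differentiated samples, Acta2 from a mean of 5580 to 50043. All 9 fibroblast markers were above background in all 6 samples.

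Of the 10 genes, 6 were higher in the differentiated samples by their representative probe set (Sdc2, Sdc3, Sdc4, Gpc3, Gpc4 and Gpc6), 2 were lower (Sdc1 and Gpc1), and Vcan and Has2 did not pass. Over all 14977 genes tested, 9.23% passed as higher and 9.27% as lower. These shares pool 5493 genes tested on MOE430B alone, where few probe sets passed, whereas all 10 genes are represented on MOE430A. The shares by chip below are the closer comparison, though with limits. On MOE430A 18 of the 22 member probe sets were above background in all 6 samples, so they were brighter than most. Among probe sets with a mean signal of at least 50% of the trimmed mean, 40.7% passed on MOE430A, 17 member probe sets among them. Several member probe sets also measure the same gene and are not independent. The median change of the 10 genes was 0.65, against 0.04 over all genes. By probe set, 15 of 22 passed on MOE430A, where 28.5% of all tested probe sets did, and 1 of 10 on MOE430B, where 1.83% did. Of the 15, 9 were higher and 6 lower, against 14.1% and 14.4% of all on that chip, and the 1 on MOE430B was higher, against 0.714% higher and 1.12% lower there. The 3 values of one state lay wholly above or below those of the other for 17 of the 22 probe sets on MOE430A and 6 of the 10 on MOE430B, against 47.7% and 22.8% of all tested probe sets.

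The direction of several of these changes depended on how the arrays were scaled. The hybridisation controls, bacterial and phage transcripts meant to be added in equal amount to every array's mix, read 2.88, 1.44 and 2.85 times the undifferentiated mean on MOE430A in differentiated samples 1, 2 and 4. Scaling on those controls moved the median change of all tested probe sets to −1.07 on MOE430A and −0.92 on MOE430B. Then only Sdc4 and Gpc3 passed as higher while Sdc1, Gpc1, Vcan and Has2 passed as lower. Of all 16310 probe sets tested on MOE430A there, 10955 passed as lower and 233 as higher. Relative to the median on that chip, Sdc1 was at −1.79, and Gpc1, Vcan and Has2 were at −0.57, −0.63 and −0.46. Scaling on the poly-A controls, added to the RNA before labelling, moved the median to 0.06 and 0.17 and turned no member that had passed. It did end the calls of 4 member probe sets. Changes are given below against the common trimmed mean, with the value under hybridisation-control scaling beside each change of the 10 genes that it turns and beside each further gene whose call it ends. On MOE430A limma gave the probe sets the same SE under that scaling, 0.40, in place of their own. The adjusted p-values there follow the size of the change alone and are not like those of the reported fit.

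**Figure D1:**
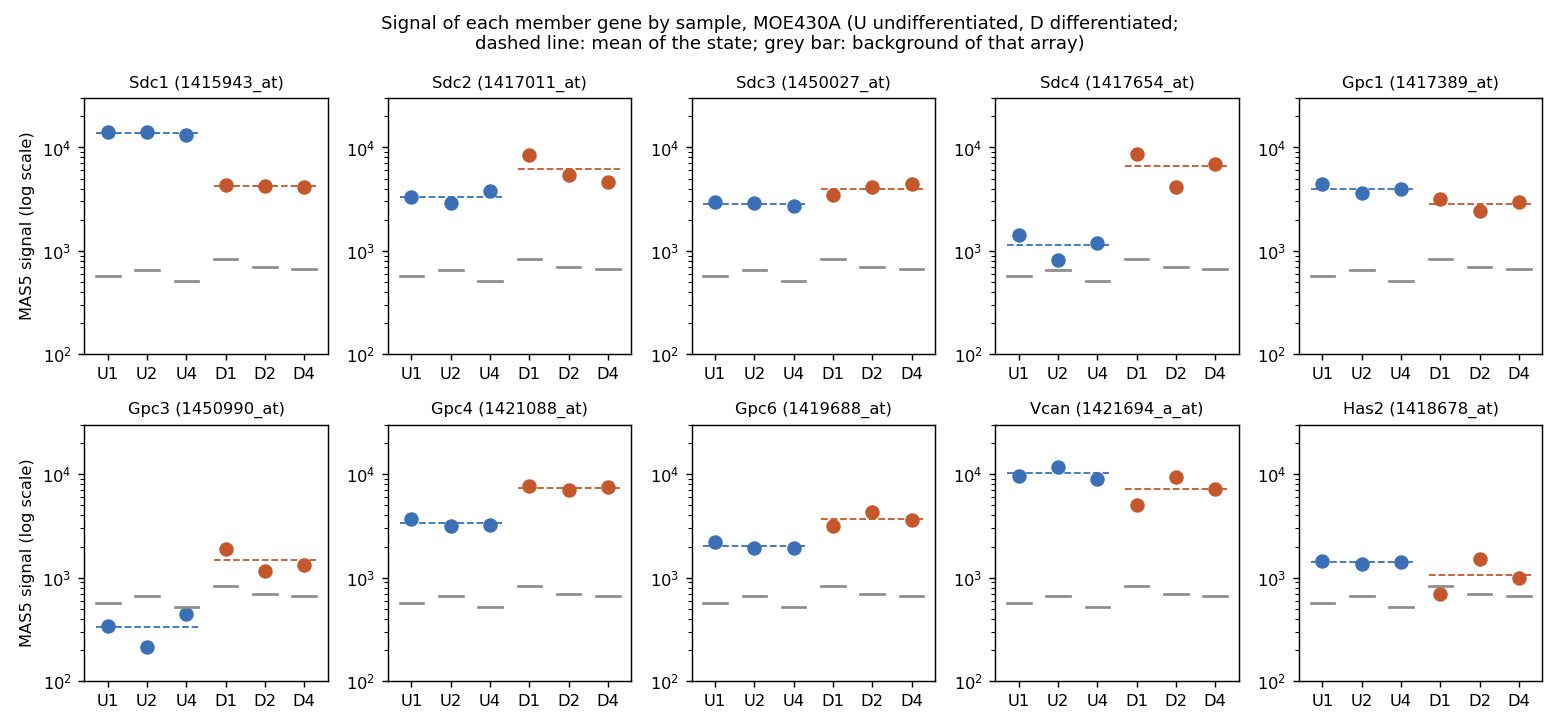
MAS5 signal of the representative probe set of each gene in every sample on MOE430A, on a log axis. Blue points are undifferentiated samples 1, 2 and 4 (U1, U2, U4), orange points differentiated samples 1, 2 and 4 (D1, D2, D4), dashed lines the mean of a state and grey bars the background of that array. Sdc1 is lower and Sdc4 higher in every differentiated sample, Gpc3 lies below the background in all undifferentiated samples, and the states overlap for Vcan and Has2.

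Sdc1 fell and Sdc4 rose, the widest opposite moves within the syndecans. The promoters of both genes are shown because of that contrast: the 250 bases before the transcription start, from RefSeq on build GRCm38.p6, as chr12:8771146-8771395 on the plus strand for Sdc1 and chr2:164443189-164443438 on the minus strand for Sdc4. Capitals mark the GC box GGGCGG, the TATA motif TATAA and the kappaB consensus, each searched on both strands.
Sdc1: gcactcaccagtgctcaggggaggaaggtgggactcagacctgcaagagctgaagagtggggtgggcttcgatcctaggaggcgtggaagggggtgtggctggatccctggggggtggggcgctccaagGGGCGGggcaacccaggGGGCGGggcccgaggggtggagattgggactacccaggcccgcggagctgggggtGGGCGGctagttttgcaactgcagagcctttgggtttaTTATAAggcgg
Sdc4: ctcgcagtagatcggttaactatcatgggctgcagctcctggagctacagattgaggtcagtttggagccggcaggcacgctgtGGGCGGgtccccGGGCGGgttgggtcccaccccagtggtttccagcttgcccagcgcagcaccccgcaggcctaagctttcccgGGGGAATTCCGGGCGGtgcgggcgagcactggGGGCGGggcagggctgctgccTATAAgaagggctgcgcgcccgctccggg
The Sdc1 window holds 3 GC boxes, at −121, −104 and −49 from the start, and TATAA at −11 and −10, which is 1 palindromic stretch read on both strands. The Sdc4 window holds 4 GC boxes, at −166, −154, −72 and −50, TATAA at −29 and a match to the kappaB consensus at −82 that ends where the GC box at −72 begins. Of 32851 mouse promoters of that length, 32.7% hold at least 1 GC box, 22.8% TATAA and 3.9% the kappaB consensus. Neither window holds the AP-1 motif TGANTCA (6.75% of promoters), the TEAD motif GGAATG (12.6%), the hypoxia core ACGTG (16.6%) or the CArG box (1.47%). These are matches of letters only and were not tested as binding sites. The promoter table held 6 of the 10 genes.

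Sdc1, a syndecan of epithelia, was lower on all 4 of its probe sets. Probe set 1415943_at read 14017, 14171 and 13198 in undifferentiated samples 1, 2 and 4, and 4345, 4201 and 4161 in the differentiated ones. The states stood far apart and each was tight, with means of 13795 ± 523 and 4235 ± 96.9 (SD, n = 3). The log2 change was −1.69 ± 0.11 (SE, adjusted p = 1.07e-04), or 3.26-fold lower.

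The other Sdc1 probe sets differed in the size of the fall, not in its direction. On 1448158_at the signal went from 7777, 7529 and 7805 to 1973, 2090 and 1426, a change of −2.05 ± 0.17 (adjusted p = 2.40e-04). On 1437279_x_at it went from 8566, 7997 and 7962 to 845, 1134 and 804, a change of −3.05 ± 0.16 (adjusted p = 4.56e-05). Its suffix is given by the array's maker to probe sets that can also match other transcripts, so the size of that value is less certain. On 1415944_at the signal went from 3962, 3467 and 3734 to 1056, 1596 and 638, where differentiated sample 4 was below the background, and the change was −1.78 ± 0.29 (adjusted p = 0.00514). All 4 passed as lower under each of the 17 alternative settings.

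Sdc4, the widely expressed syndecan that joins integrins in focal adhesions, was higher on both of its probe sets. Probe set 1417654_at read 1429, 815 and 1198 in undifferentiated samples 1, 2 and 4, and 8653, 4142 and 6948 in the differentiated ones. The lowest differentiated value, in sample 2, was still well over the highest undifferentiated value. The change was 2.41 ± 0.31 (adjusted p = 0.00183), or 5.63-fold higher, and remained past the threshold under all 17 alternatives, at 1.26 under hybridisation-control scaling. The 2 high values came from samples 1 and 4, whose hybridisation controls read highest, and without both the change was 1.82 ± 0.31 (adjusted p = 0.0195). That fit has 1 differentiated sample left, which is assumed to vary as the undifferentiated ones do. The part of those controls' difference in the value was not tested. Probe set 1448793_a_at, which read 774, 688 and 626 against 2529, 1820 and 1874, gave 1.47 ± 0.17 (adjusted p = 0.00105) and 0.36 (adjusted p = 0.399) under hybridisation-control scaling.

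Sdc2, known as the syndecan of mesenchymal cells, was higher on 2 of its 3 probe sets on MOE430A. Probe set 1417011_at read 3312, 2924 and 3786 in the undifferentiated and 8451, 5466 and 4682 in the differentiated samples. Differentiated sample 1 stood above the other two, and the states did not overlap. The change was 0.84 ± 0.23 (adjusted p = 0.0348), which turned to −0.33 under hybridisation-control scaling, or 0.74 above the median there, and missed the threshold in 7 further alternatives. Among these were the fits without undifferentiated sample 1, 2 or 4 or differentiated sample 2, with an adjusted p of 0.0582 to 0.109. Probe set 1417012_at, at 2563, 1998 and 3013 against 5676, 4199 and 3957, gave 0.85 ± 0.20 (adjusted p = 0.0218) and −0.31 under that scaling, and missed the threshold without undifferentiated sample 1 (0.0587) or 2 (0.0677). Probe set 1448545_at, at 3167, 3023 and 4170 against 7691, 4760 and 4782, gave 0.70 ± 0.23 and did not pass (adjusted p = 0.0587, −0.47 under that scaling). The probe set on MOE430B was below the background in every sample.

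Sdc3, best known from the nervous system, passed as higher on 1 of 3 probe sets. Probe set 1450027_at read 2956, 2887 and 2706 against 3452, 4105 and 4412. The states did not overlap, but the distance was small, at 0.47 ± 0.14 (adjusted p = 0.0412). The call of this probe set was lost in 9 alternatives besides hybridisation-control scaling. Among these were the fits without undifferentiated sample 1, 2 or 4 or differentiated sample 2 or 4, with an adjusted p of 0.0861 to 0.125. Its change turned to −0.69 under hybridisation-control scaling, or 0.38 above the median there. Probe set 1436482_a_at, at 959, 675 and 782 against 1009, 1589 and 1340, gave 0.65 ± 0.20 (−0.45 under that scaling) and just missed the threshold (adjusted p = 0.0503), passing at 0.0243 without differentiated sample 1. On 1420853_at, at 834, 1098 and 1089 against 1025, 2014 and 2399, the states overlapped through differentiated sample 1. That probe set gave 0.73 ± 0.30 (adjusted p = 0.113, −0.38 under that scaling), and 1.08 ± 0.17 (adjusted p = 0.00855) without differentiated sample 1.

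No scaling of an array changes how far 2 genes moved apart within it. On the representative probe sets, Sdc4 moved 4.20 (log2) relative to Sdc1, or 18.3-fold, Sdc2 moved 2.56 and Sdc3 2.18. In each case the 3 differentiated values lay above the 3 undifferentiated ones. The two-sided exact permutation test gave p = 0.1, the smallest that 3 against 3 samples allow, for all 5 ratios computed, adjusted or not. The 5 pairs were chosen after the values had been seen.

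**Figure D2:**
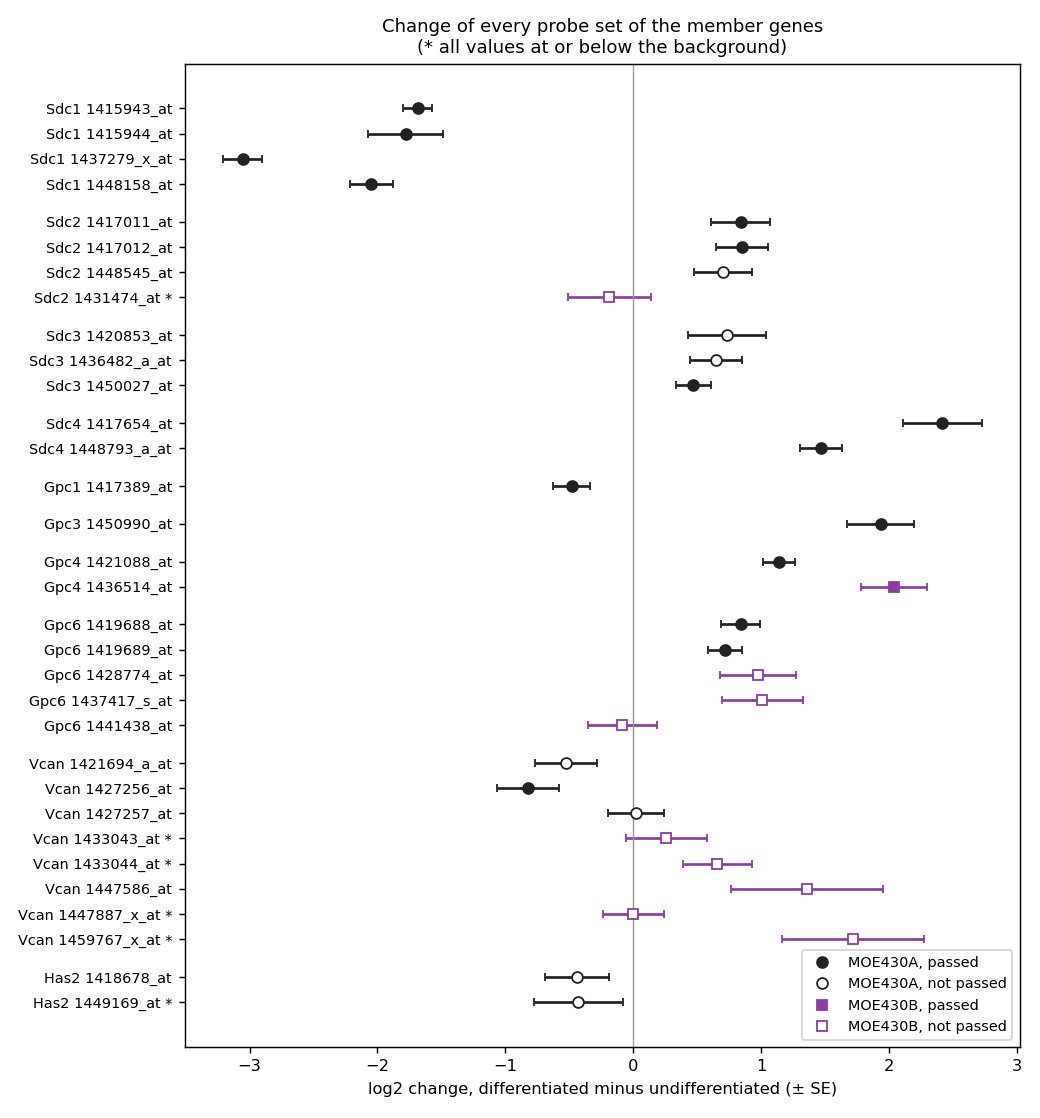
Log2 change, differentiated minus undifferentiated, with SE, of all 32 probe sets. Filled marks passed at an adjusted p below 0.05; circles are MOE430A and squares MOE430B, and an asterisk marks probe sets below the background in every sample. All 4 Sdc1 probe sets lie left of zero and both Sdc4 probe sets right of it, while those of Sdc2, Sdc3, Gpc4 (MOE430A) and Gpc6 that passed as higher turn below zero under hybridisation-control scaling.

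Among the glypicans, Gpc3 and Gpc4 gave the largest rises. They are neighbours on the X chromosome, and in RefSeq's gene order Hs6st2, a sulfotransferase of heparan sulfate described further on, lies on the other side of Gpc4. The promoters of both glypicans are shown because these neighbours rose together under the reported scaling (Gpc4 on MOE430A was at −0.03 under hybridisation-control scaling), as the 250 bases before the start on the minus strand of GRCm38.p6, chrX:52613975-52614224 for Gpc3 and chrX:52164924-52165173 for Gpc4. Capitals mark the GC box, here as its reverse complement.
Gpc3: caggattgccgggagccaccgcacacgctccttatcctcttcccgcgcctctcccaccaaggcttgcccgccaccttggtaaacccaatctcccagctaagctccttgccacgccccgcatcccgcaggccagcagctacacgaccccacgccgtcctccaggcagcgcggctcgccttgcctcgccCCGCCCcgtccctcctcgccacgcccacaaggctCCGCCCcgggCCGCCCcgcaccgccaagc
Gpc4: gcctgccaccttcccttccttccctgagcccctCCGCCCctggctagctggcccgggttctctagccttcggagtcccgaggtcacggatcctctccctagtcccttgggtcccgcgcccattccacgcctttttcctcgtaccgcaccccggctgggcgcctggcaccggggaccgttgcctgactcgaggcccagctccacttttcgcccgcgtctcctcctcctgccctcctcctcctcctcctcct
The Gpc3 window holds 3 GC boxes, at −63, −29 and −19, and the Gpc4 window 1, at −217, with a TEAD motif at −131. Neither holds TATAA or the kappaB consensus, and the GC content of the windows is 71.6% and 68.4%.

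Gpc3, whose loss causes overgrowth in mice and in people, went from below the background to above it. Its probe set 1450990_at read 338, 214 and 444 in the undifferentiated samples, all not above background, and 1909, 1153 and 1338 in the differentiated ones. Every differentiated sample was above its array's background, so only a lower bound of the rise is known, at least 2.49-fold. The fitted change was 1.93 ± 0.26 (adjusted p = 0.00247), and it passed as higher under all 17 alternatives, at 0.88 under hybridisation-control scaling.

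Gpc4, a glypican that modulates growth factor and Wnt signalling, was higher on both chips. Probe set 1421088_at on MOE430A read 3712, 3150 and 3200 against 7726, 7121 and 7484. Each state was tight, at 3354 ± 311 and 7444 ± 305 (SD, n = 3), and the change was 1.14 ± 0.12 (adjusted p = 9.15e-04). It passed in 16 of 17 alternatives, the exception being hybridisation-control scaling, which gave −0.03 (adjusted p = 0.937), or 1.04 above the median there. On MOE430B, 1436514_at read 3059, 2961 and 3519 against 13356, 10762 and 16175. It was the 1 member probe set to pass on that chip, at 2.04 ± 0.26 (adjusted p = 0.0190), and lost the call in 8 alternatives, hybridisation-control scaling among them (1.03, adjusted p = 0.195). Without undifferentiated sample 1, 2 or 4 or differentiated sample 1 or 4 the adjusted p was 0.0591 to 0.0922.

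Gpc6, a close relative of Gpc4 in sequence, was higher on both of its MOE430A probe sets. Probe set 1419688_at read 2203, 1951 and 1915 against 3169, 4290 and 3632, a change of 0.84 ± 0.15 (adjusted p = 0.00743). Probe set 1419689_at read 840, 669 and 691 against 1218, 1219 and 1308, a change of 0.72 ± 0.13 (adjusted p = 0.00813). Both turned below zero under hybridisation-control scaling, to −0.31 and −0.38, which is 0.76 and 0.69 above the median there. The call of 1419689_at also ended under poly-A scaling. On MOE430B, 1428774_at read 8001, 8963 and 9204 against 12171, 18323 and 22759, and the states did not overlap. That probe set gave 0.98 ± 0.30 and did not pass (adjusted p = 0.198), and 1437417_s_at gave 1.01 ± 0.32 (adjusted p = 0.206). Under hybridisation-control scaling these were at −0.0409 and −0.0019. The last Gpc6 probe set, 1441438_at, was near the background in both states and gave −0.09 ± 0.27.

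Gpc1, a glypican that binds fibroblast growth factors, was the only glypican of the 4 to pass as lower. Probe set 1417389_at read 4415, 3650 and 3951 against 3140, 2436 and 2978. The groups stood apart by little, and the change was −0.48 ± 0.15 (adjusted p = 0.0484). The direction held under all 17 alternatives, from −1.64 to −0.38, but the threshold was missed in 11 of them, with an adjusted p of up to 0.279. Leaving out any 1 sample other than differentiated sample 1 ended the call, at 0.0771 to 0.138. Within arrays Gpc4 moved 1.65 (log2) and Gpc6 1.36 relative to Gpc1.

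Vcan did not pass on its representative probe set and its probe sets differed from each other. Probe set 1421694_a_at read 9716, 11831 and 9102 in the undifferentiated samples and 5059, 9499 and 7205 in the differentiated ones. The states overlapped through differentiated sample 2, and the change was −0.53 ± 0.24 (adjusted p = 0.141). Probe set 1427256_at, at 9885, 10534 and 8857 against 3809, 7474 and 5763, did not overlap and passed as lower, at −0.82 ± 0.24 (adjusted p = 0.0432), a call lost in 11 alternatives. Leaving out any 1 sample other than differentiated sample 2 ended it, at an adjusted p of 0.0568 to 0.122. Probe set 1427257_at, at 2577, 3044 and 2178 against 1949, 3134 and 2924, gave 0.02 ± 0.22 (adjusted p = 0.949), and −1.13 under hybridisation-control scaling. Of the 5 Vcan probe sets on MOE430B, 4 were below the background in every sample and none passed.

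Has2 was lower in 2 of 3 differentiated samples and not in the other. Probe set 1418678_at read 1435, 1357 and 1427 in the undifferentiated samples and 696, 1516 and 982 in the differentiated ones, sample 1 being below the background. The undifferentiated values were tight, 1407 ± 42.8 (SD, n = 3), while differentiated sample 2 was the highest of all 6. The change was −0.44 ± 0.25 (adjusted p = 0.229). Without differentiated sample 2 it was −0.71 ± 0.18 (adjusted p = 0.0344), and without differentiated samples 1 and 4 it was 0.10 ± 0.16 (adjusted p = 0.686), in a fit where differentiated sample 2 alone stands for its state and has no spread of its own. The second probe set, 1449169_at, was below the background in every sample, and its change of −0.43 ± 0.35 likewise passed, at −0.83 (adjusted p = 0.0323), without differentiated sample 2.

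**Figure D3:**
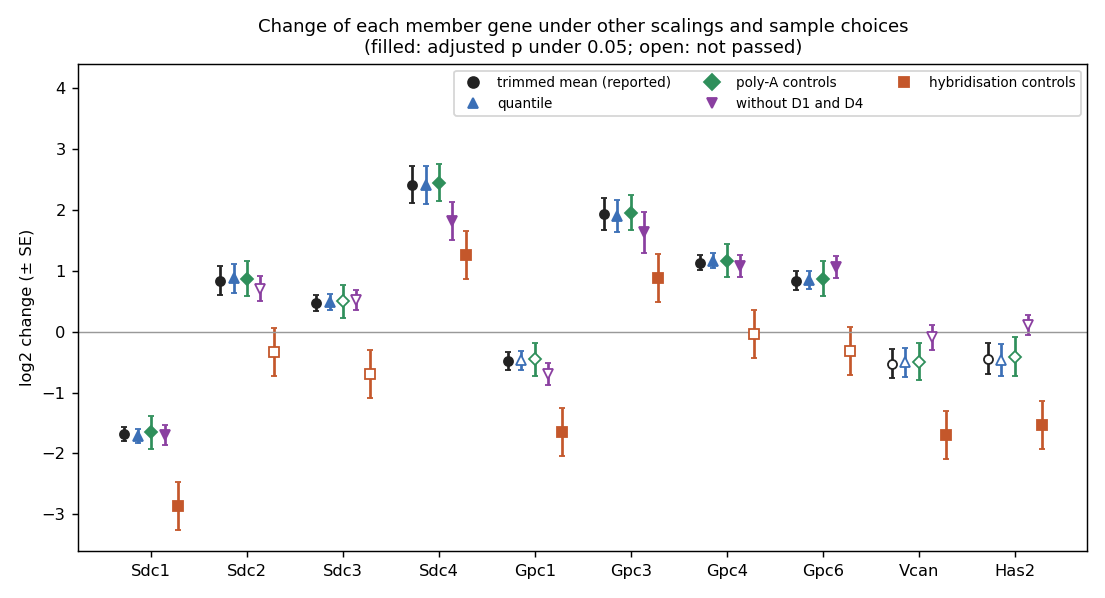
Log2 change with SE of the representative probe set of each gene on MOE430A under the reported scaling, 3 other scalings, and without differentiated samples 1 and 4, which leaves 1 differentiated sample. Filled marks had an adjusted p below 0.05. Under hybridisation-control scaling (orange squares) every gene sits lower, and Sdc2, Sdc3, Gpc4 and Gpc6 turn below zero, while Sdc1 stays lower and Sdc4 and Gpc3 stay higher in all 5.

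Genes that build, edit and cut these molecules were counted in 7 lists with 138 entries, of which 113 were tested, 19 passed as higher and 18 as lower. The shares over all genes, 9.23% and 9.27%, are to be read beside each count below but pool both chips. On MOE430A, where 96 of the 113 were tested, 14.1% of all probe sets passed as higher and 14.4% as lower. Of the 113, 17 were tested on MOE430B alone, and 0 of those passed (limma; 4 had an unadjusted p below 0.05). Directions of these lists also depended on the scaling: under hybridisation-control scaling no more than 1 gene passed as higher in any list other than shedding and cleavage, which had 5. Of the 31 genes named from the lists by rule, 23 kept their call whichever 1 sample was left out. Cemip2, Chst15, Gusb, Hspg2, Nudt16l1, Pdcd6ip, Sdcbp and Spock1 did not, with an adjusted p of 0.0510 to 0.117 in the fits that lost it.

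Heparan sulfate chains were represented by 23 tested genes of polymerisation and sulfation, of which 2 passed as higher, 1 as lower and 20 did not pass, with a median change of 0.02. Hs6st2, which adds sulfate at the 6-O position, read 202, 289 and 166, all not above background, against 1692, 3130 and 2808. It was at least 4.26-fold higher, with a fitted change of 3.13 ± 0.26 (adjusted p = 2.77e-04). Papss2, which makes the sulfate donor used by all sulfotransferases, read 2620, 2757 and 2566 against 844, 757 and 787. It fell by 1.64 on the log2 scale (SE 0.12, adjusted p = 1.36e-04). Glce, the epimerase that turns glucuronic into iduronic acid, gave 0.82 ± 0.11 (adjusted p = 0.00253) and −0.34 under hybridisation-control scaling. The chain polymerase Ext1 gave 0.02 ± 0.12 (adjusted p = 0.931).

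Of 9 tested genes that edit or degrade heparan sulfate, 2 passed as higher and 2 as lower, with a median of 0.49. Sulf2, an enzyme at the cell surface that removes 6-O sulfates from finished chains, read 2166, 2394 and 1917 against 5085, 4995 and 6127. It rose by 1.29 ± 0.15 (adjusted p = 0.00104), a call that ended under hybridisation-control scaling (0.13, adjusted p = 0.755). The lysosomal iduronidase Idua gave 1.23 ± 0.17 (adjusted p = 0.00237), and 0.11 (adjusted p = 0.796) under that scaling. The lysosomal enzymes Hgsnat and Gusb gave −0.73 ± 0.12 (adjusted p = 0.00465) and −0.59 ± 0.17 (adjusted p = 0.0367). Sulf1, the relative of Sulf2, gave 1.40 ± 0.27 on MOE430B and did not pass there (adjusted p = 0.0666).

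Other carriers of heparan sulfate moved both ways, with 2 of 10 tested genes higher, 3 lower and a median of −0.24. Tgfbr3, the coreceptor betaglycan, read 2896, 2885 and 2815 against 9714, 8637 and 10060, and rose by 1.70 ± 0.12 (adjusted p = 1.41e-04), or by 0.53 without passing (adjusted p = 0.213) under hybridisation-control scaling. Col18a1, a basement membrane collagen, read 9576, 14376 and 13359 against 2799, 2489 and 2756, a change of −2.16 ± 0.18 (adjusted p = 2.56e-04). The states stood well apart for both genes. Hspg2, which encodes perlecan, gave 0.80 ± 0.18 (adjusted p = 0.0163) and −0.38 under hybridisation-control scaling. Nrp1, a neuropilin that can carry a chain, gave −0.66 ± 0.13 (adjusted p = 0.0104). Spock1 lay below the background in the differentiated samples, a fall of at least 1.10-fold (adjusted p = 0.0455).

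Among 14 tested genes of chondroitin and dermatan sulfate synthesis, 1 passed as higher and 1 as lower, with a median of 0.13. Csgalnact1, which starts chondroitin sulfate chains of the kind that versican carries, read 3865, 2787 and 4005 against 8611, 10678 and 9764, and rose by 1.44 ± 0.18 (adjusted p = 0.00155), a call that ended under hybridisation-control scaling (0.27, adjusted p = 0.524). Chst15, a sulfotransferase of chondroitin sulfate, lay below the background in the differentiated samples, a fall of at least 1.35-fold (adjusted p = 0.0273).

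Of 18 tested genes of hyaluronan synthesis, turnover and binding, 2 passed as higher and 4 as lower, with a median of 0.02. Ptx3, a pentraxin of hyaluronan matrices, read 216, 305 and 272, not above background, against 17722, 22262 and 22860. It was at least 36.1-fold higher, with a fitted change of 5.95 ± 0.16 (adjusted p = 1.51e-05). Itih5, of the family whose heavy chains are linked to hyaluronan, went the other way, from 5720, 7710 and 7386 to 329, 386 and 176. It was at least 9.46-fold lower (fitted change −4.27 ± 0.25, adjusted p = 6.95e-05).

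Tnfaip6, the enzyme that transfers those heavy chains, gave −1.36 ± 0.18 (adjusted p = 0.00234), with 1 of 3 differentiated values above the background. The hyaluronan-degrading proteins Cemip and Cemip2 moved in opposite directions, with changes of 1.57 ± 0.12 (adjusted p = 1.78e-04, 1 of 3 undifferentiated values above the background) and −1.25 ± 0.28 (adjusted p = 0.0161). Under hybridisation-control scaling Cemip was at 0.48 and did not pass (adjusted p = 0.258). The fourth lower gene was Hmmr, at −0.87 ± 0.17 (adjusted p = 0.00927), a hyaluronan receptor that is also a spindle protein, named here after its values were seen. Has1 gave 0.38 ± 0.19 (adjusted p = 0.169) and the receptor Cd44 −0.27 ± 0.18 (adjusted p = 0.291).

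**Figure D4:**
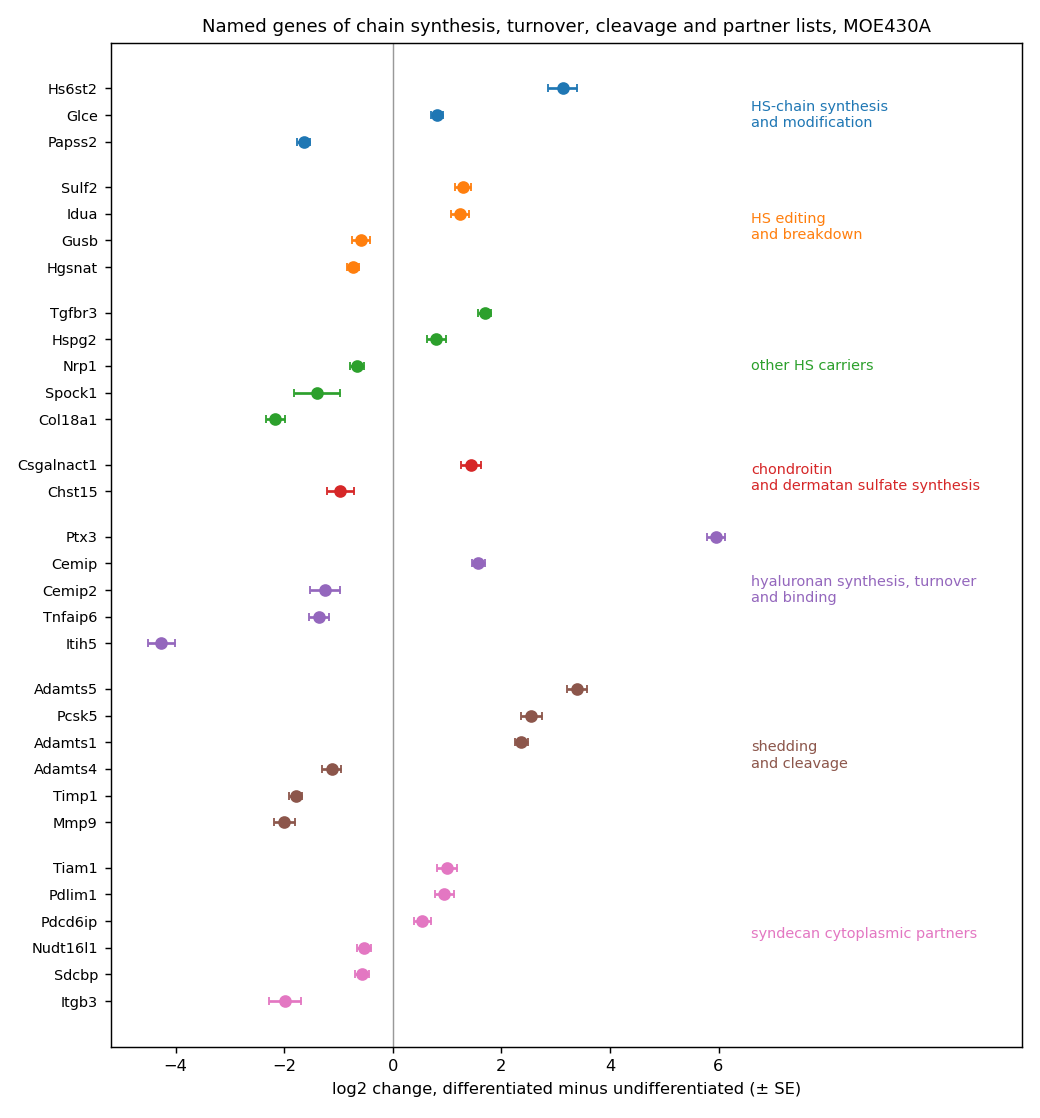
Log2 change, differentiated minus undifferentiated, with SE, of the representative probe sets on MOE430A of genes named by rule from 7 lists, up to 3 with the largest rise and 3 with the largest fall among those that passed. Colours mark the lists. Ptx3 at 5.95 and Itih5 at −4.27 lie farthest out; Glce, Hspg2, Tiam1, Pdlim1 and Pdcd6ip turn below zero under hybridisation-control scaling.

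Genes listed under shedding and cleavage of these proteoglycans, inhibitors included, held 6 higher and 4 lower genes of 22 tested, with a median of 0.16. Adamts5 and Adamts1, which cut versican, read 835, 1149 and 1040 against 8998, 12648 and 12343, and 3801, 3496 and 3497 against 18891, 17939 and 19853. They rose by 3.39 ± 0.19 (adjusted p = 5.58e-05) and 2.37 ± 0.12 (adjusted p = 4.13e-05). Adamts4, another versican-cutting enzyme, gave −1.13 ± 0.18 (adjusted p = 0.00465), so the family did not move one way. Mmp9, which can shed syndecans, was 4.29-fold lower (adjusted p = 5.01e-04, 2 of 3 differentiated values above the background), and the inhibitor Timp1 gave −1.79 ± 0.12 (adjusted p = 1.04e-04). The proprotein convertase Pcsk5 was at least 5.09-fold higher (adjusted p = 1.84e-04). The sheddases Adam10 and Adam17 gave −0.41 ± 0.17 (adjusted p = 0.110) and −0.34 ± 0.15 (adjusted p = 0.131), and Notum, also on this list, gave 0.34 ± 0.18 (adjusted p = 0.191).

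Proteins that bind syndecan tails or act with them at adhesions held 4 higher and 3 lower genes of 17 tested, with a median of 0.18. Sdcbp, or syntenin, which binds the tails of syndecans, read 19613, 22665 and 19259 against 14481, 13318 and 13431, a change of −0.57 ± 0.13 (adjusted p = 0.0158). Pdcd6ip, or Alix, which binds syntenin, gave 0.54 ± 0.15 (adjusted p = 0.0363), and −0.61 under hybridisation-control scaling. Nudt16l1, or syndesmos, a partner of the Sdc4 tail, gave −0.54 ± 0.13 (adjusted p = 0.0209). Tiam1, an activator of Rac, gave 1.00 ± 0.19 (adjusted p = 0.00892, −0.0029 under hybridisation-control scaling). Only 1 of its 3 differentiated values and 0 of its undifferentiated ones lay above the background, so no bound on its fold is given. Pdlim1, a protein of stress fibres, gave 0.95 ± 0.18 (adjusted p = 0.00894, −0.22 under that scaling). Itgb3, the beta3 integrin, was not above background in the differentiated samples and above it in 2 of 3 undifferentiated ones (adjusted p = 0.00310), and no bound on its fold is given. Protein kinase C alpha (Prkca), which Sdc4 activates, gave −0.13 ± 0.20 (adjusted p = 0.645).

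By the root mean square difference of centred log2 values over the 6 samples, among 9474 genes of MOE430A, the gene with the pattern nearest to Sdc1 was Papss2, at 0.04, followed by Septin9 and Rfc3, both at 0.07. Nearest to Gpc4 were Man2a1, Atf4 and Creb3l3, at 0.07, 0.07 and 0.08. Nearest to Sdc4 were Fibin, Fbln5 and Chodl, at 0.27, 0.29 and 0.30, farther off than for the other genes. Nearest to Gpc3 were Pim1, Cdc42ep3 and Rpl27a, at 0.14, 0.19 and 0.20. All of these values share the same 6 arrays.

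Cell-type markers moved along with the state, and their part in the changes above was not tested. Of the 38 marker genes tested on MOE430A, 23 passed, and the counts below are to be read beside the 28.5% of all probe sets that passed on that chip. All 9 fibroblast markers were above background in every sample of both states, 5 passed as higher (Col1a1, Col1a2, Col3a1, Pdgfra and Thy1) and Lum as lower, and their summed signal ranged from 343863 to 347978 in the undifferentiated and from 534942 to 752907 in the differentiated samples. Of the myoepithelial markers 3 of 7 tested were higher (Acta2, Cnn1 and Mylk). The sums of the 6 on MOE430A, made up mostly by Acta2, ranged from 7245 to 7644 and from 48785 to 63294. Of these 6, 1 was above background in all 3 undifferentiated samples and 2 in all 3 differentiated ones. None of 5 tested luminal markers passed. The 4 on MOE430A had sums of 2708 to 3690 and 1971 to 3091, and Krt18 was below background in every differentiated sample. Epcam, tested on MOE430B alone, read 7377, 1961 and 8816 against 3911, 10032 and 7869, and the states overlapped. Of the 11 listed, 6 were too dim to be tested, Krt19 and Cdh1 among them.

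Mast cell markers were lower in 5 of 5 tested, with sums of 6124 to 7592 against 1896 to 1957. Of 5 leukocyte markers 3 were higher, with sums of 5234 to 6067 against 7680 to 10049. Of 5 endothelial markers 1 was higher and 2 were lower, of 3 Schwann cell markers 2 were higher and 1 lower, and the 1 adipocyte marker tested, Fabp4, did not pass.

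These marker counts depended on the scaling as well. Under hybridisation-control scaling the fibroblast markers had 0 higher and 4 lower, the myoepithelial 2 and 2 of 6 tested, the luminal 0 and 4, the leukocyte 0 and 1, the endothelial 0 and 3, the Schwann cell 0 and 1, and the mast cell 0 and 5. Of all 16310 probe sets tested on MOE430A there, 10955 passed as lower and 233 as higher. Quantile normalization gave 3 fibroblast markers higher and 2 lower, with a median change of 0.31 in place of 1.32. The mast cell count was 3 of 5 without undifferentiated sample 1, undifferentiated sample 4 or differentiated sample 4, and 4 without any other 1 sample. No endothelial marker passed without undifferentiated sample 2 or 4, and 2 luminal markers passed as lower without differentiated sample 4. The Schwann cell markers had 1 higher in place of 2 without undifferentiated sample 2 or 4 or differentiated sample 1 or 4.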

How the data were processed

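Total RNA prepared with TRIzol from 3 undifferentiated and 3 differentiated mammosphere samples was hybridised to MOE430A and MOE430B, 12 arrays in all, as the labels state. What the authors deposited is the MAS5 signal, a linear intensity, 1 per probe set, computed with MAS5 per the submitters' processing notes, which name no version. On MOE430A each deposited array averaged 1500.5 after trimming 2% at both ends, and on MOE430B 1500.2. The instrument records deposited with the arrays were read for fluidics station and scan session only: undifferentiated arrays were run on station 2 and differentiated ones on station 1, and undifferentiated sample 1 was scanned in session 2, all others in session 1.

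Signals were brought to that trimmed mean of the chip, 5% of it (75.0 units) was added, and log2 was taken. Probe sets with a mean signal of at least 20% of it were tested, 15939 and 17915, with limma 3.58.1 (lmFit, eBayes; R 4.3.3) on each chip apart, without covariates, and adjusted by Benjamini and Hochberg over the chip. All adjusted p-values come from this test, and fold changes on the log2(signal + offset) scale understate those of dim probe sets. Folds are ratios of geometric means of the signals. A bound is given where all 3 values of a state lie below the background and all 3 of the other above it, the low values being raised to it. Gene symbols came from the platforms' tables, updated through RefSeq (20364 of 20393 and 14499 of 14674 single-gene probe sets matched), and promoters from RefSeq on GRCm38.p6. The tests were run on simulated data with independent noise in each probe set and array. Those data held no difference between whole arrays, so they cannot show how the calls fare under the scaling differences described above. The number of arrays limits the precision.

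The members, gene lists, naming rule, tests and alternatives were chosen with earlier results of these data known. Named are all member probe sets, up to 3 rises and 3 falls from each of 7 pathway lists among genes that passed without overlap, markers, and for genes that passed the 3 nearest in pattern. Genes given as examples of members that did not pass (Ext1, Sulf1, Has1, Cd44, Adam10, Adam17, Notum, Prkca) and the use of the trpn controls as background were chosen after the values had been seen. Alternatives were other scalings, offsets, filters and priors, the sample number as a block, leaving out samples, and other choices of the probe set that represents a gene. Python 3.11.15, pandas 2.3.3 and matplotlib 3.10.9 were used for tables and figures.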

Additional observations from a re-analysis of the deposited data

How the results depend on the processing

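All 4 Sdc1 probe sets, Sdc4 1417654_at and Gpc3 kept their call under all 17 alternatives, and Gpc4 1421088_at and Gpc6 1419688_at under 16, all but hybridisation-control scaling. Under that scaling the genes that passed were 2 higher and 4 lower, the member probe sets on MOE430B 0, and all probe sets 11188 on MOE430A (2.08% of them higher, against 49.5%) and 1512 on MOE430B (2.25% against 39.0%). Reversed there were Gpc4 1421088_at (−0.0342), Gpc6 (−0.31 and −0.38), Sdc2 (−0.33 and −0.31), Sdc3 1450027_at (−0.69), Vcan 1427257_at (−1.13), Glce (−0.34), Hspg2 (−0.38), Pdcd6ip (−0.61), Pdlim1 (−0.22) and Tiam1 (−0.0029). Calls ended there without a change of sign for Sdc4 1448793_a_at, Gpc4 1436514_at, Sulf2, Idua, Tgfbr3, Csgalnact1 and Cemip. The cause of the controls' difference was not tested. Only 1 gene, Sdc1, passed as lower under quantile normalization, poly-A scaling, the 1% offset, no filter, the replicate block, and without differentiated samples 1 and 4, an alternative chosen after seeing the data that leaves 1 differentiated sample with no spread of its own. Poly-A scaling left 2531 and 168 of all probe sets, and leaving out those samples 2501 and 0 (limma; 2166 at an unadjusted p below 0.05) with 0 member probe sets on MOE430B. The trend and robust prior gave 838 on MOE430B, 3 of them members. Leaving out 1 sample at a time gave 2751 to 3870 probe sets on MOE430A and 39 to 145 on MOE430B, 1 to 2 member genes lower and 0 to 1 member probe sets on MOE430B. The fewest on each chip came without undifferentiated sample 4. Whether the sample numbers pair the samples is not settled. Same-numbered deviations correlated at −0.02 to 0.04 on MOE430A and −0.02 to 0.05 on MOE430B. Differently numbered ones correlated at −0.05 to 0.03 and −0.08 to 0.04, and values so near zero cannot decide it. The replicate block gave 3563 probe sets on MOE430A, 11 of them members, and 0 on MOE430B (limma; 2505 at an unadjusted p below 0.05), with 0 members. The scan session as a block was not run, since session 2 holds 1 array of each chip and the block would only remove it, as leaving out undifferentiated sample 1 does (10 member probe sets on MOE430A, 0 on MOE430B). Signal near background limits MOE430B, where 69.3% to 85.0% of probe sets lay at or below it, against 43.5% to 54.5% on MOE430A.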

Other observations

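Hs6st2, Gpc4 and Gpc3 lie in that order on the X chromosome in RefSeq's gene order, and all 3 passed as higher, with changes of 3.13 ± 0.26, 1.14 ± 0.12 and 1.93 ± 0.26 on MOE430A. Of the 5 other genes listed between Hs6st2 and Gpc3, 0 had a tested probe set. Under hybridisation-control scaling Gpc4 on MOE430A was at −0.03. This trio was noticed after the values had been seen, no test of neighbouring genes was run, and nothing is drawn from it about shared control.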
